A study of Mus musculus with 8 samples.

Results

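The genes of the cytosolic ribosomal proteins were compared between livers of PiZ mice and of PiZ mice that lack Chop. They were defined by annotation: protein-coding genes of GENCODE mouse release M21 whose symbols follow the Rpl or Rps naming, with Rplp0, Rplp1, Rplp2 and Rpsa, and without the S6 kinases and pseudogenes. The rule gave 86 of the 52551 rows of the count files. Of these, 33 encode proteins of the small (40S) subunit and relatives, and 52 those of the large (60S) subunit. The remaining gene, Rps19bp1, met the naming rule but encodes a protein that binds RPS19 and is no part of the ribosome. The rule also left out 3 ribosomal protein genes with other names, Rack1 among them, which are not counted here.

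Both groups were male C57BL/6 mice of 6 weeks and carried PiZ, a human transgene whose product, the Z form of alpha-1 antitrypsin, misfolds in the endoplasmic reticulum of hepatocytes. In PiZ/Chop-/- mice the gene for CHOP (Ddit3), a transcription factor made during stress of that compartment, was deleted as well. RNA of whole liver was read at the 3' ends of transcripts by QuantSeq in 4 libraries per group. Wild-type mice, which the design text also names, were not analysed here.

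A ribosome joins a small subunit, which reads the messenger RNA, to a large subunit, which forms the peptide bond and lets the new protein out through a tunnel. Nearly every ribosomal protein is needed in a single copy per ribosome, so their genes are expressed together at high levels, also in the liver, which makes much of the protein of blood plasma. Most of their messenger RNAs start with a cytosine and a run of pyrimidines, the 5' TOP tract, through which growth signals set how strongly they are translated. Mammalian genomes also carry many copies of these genes, made by reverse transcription of their messenger RNAs, and most of these are annotated as processed pseudogenes.

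Total counts per library ran from 1650260 to 3064385. Ddit3 followed the labels, with 152 ± 50.5 CPM (counts scaled to library size) in the PiZ group against 3.03 ± 1.13 CPM without Chop, as mean ± SD with n = 4 per group (edgeR adjusted p = 2.35e-07 at a log2 fold change of -5.60). PiZ library 4 stood apart from the rest, with a mean correlation of 0.914 with its own group against 0.931 to 0.951 for the other libraries, so the summaries over members, and the named values that moved most, are also given without it. Hepatocyte markers made up 27664 to 37051 CPM in the PiZ group against 27417 to 36289 CPM without Chop, and all 9 of them passed the filter on low counts. Nothing in the labels ties a library to a single mouse, and p-values therefore cover only the variation among libraries, which may be technical. Fold changes compare PiZ/Chop-/- with PiZ and are given as log2 values.

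The counts of ribosomal protein genes were spread very unevenly. Over the 8 libraries 30 of the 86 genes had 1000 counts or more, 25 had fewer but at least 100, and 31 had under 100, among them Rps6 and Rpl10l with 0. The highest was Rplp1 (33159 counts), a protein of the stalk that recruits elongation factors, followed by Rps20 (29804), Rps14 (18337) and Rpl8 (12349). At the other end stood Rps6, the 40S protein that growth signalling phosphorylates, with 0 counts in all 8 libraries. A count of 0 allows up to 3 counts. Taken over a library's total counts, that is 0.979 to 1.82 CPM depending on the library. Rps29, a small zinc-binding 40S protein, had 11 counts in all, Rpl11 had 34 and Rpl5 had 42. The last pair bind the 5S rRNA and also MDM2, the ligase that holds p53 down.

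Where a gene had few counts, a near-identical copy elsewhere in the genome often had many. A copy was taken to be another gene of at least 95% identity over at least 100 bases of the coding sequence and the first 100 bases after it, if it was annotated as a pseudogene or carried the name of a predicted gene or of a ribosomal protein gene. By this rule 81 of the 86 genes had copies, 597 in all, and the copies held 143059 counts against 208967 in the genes themselves, 40.6% of the sum. Of the copies 578 were annotated as pseudogenes, 13 as protein-coding, 5 as lincRNA and 1 as unclassified. In 46 of 85 families, each a gene with its copies, the copies held more counts than the gene. Rps27 and its retrogene Rps27rt form 1 family.

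The clearest cases were genes of both subunits. Rps29 had 11 counts and its copy Gm14303 (chr2:172509521-172509691, minus strand, mm10) had 6954. Rpl11 had 34 and Gm10288 (chr3:146838811-146839347, minus strand) had 6565. In both pairs nearly all counts lay on the copy. Rps13 had 32 counts against 5209 for Rps13-ps2, Rpl36 had 30 against 5303 for Rpl36-ps2, and Rpl24 had 2 against 3030 for Gm9385. Rps14, itself among the highest, had 18337 counts against 20782 for Gm5805. In other low genes the copies were low as well. Rps6 had 172 counts on Rps6-ps3 and 214 over all 11 copies, and Rps7 (34 counts) and Rps23 (26) had 90 and 122 over theirs. Across the 80 families with copies, the counts of a gene and of its copies had a Spearman's rho of -0.06, a description over genes that share libraries. Whether a count on a copy came from a transcript of the gene or of the copy cannot be told apart in these files, and the sources used here do not say how reads with several matches were treated. A gene's own level, low values above all, is therefore uncertain, and the summaries over members are given for the genes alone and for the families.

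**Figure D1:**
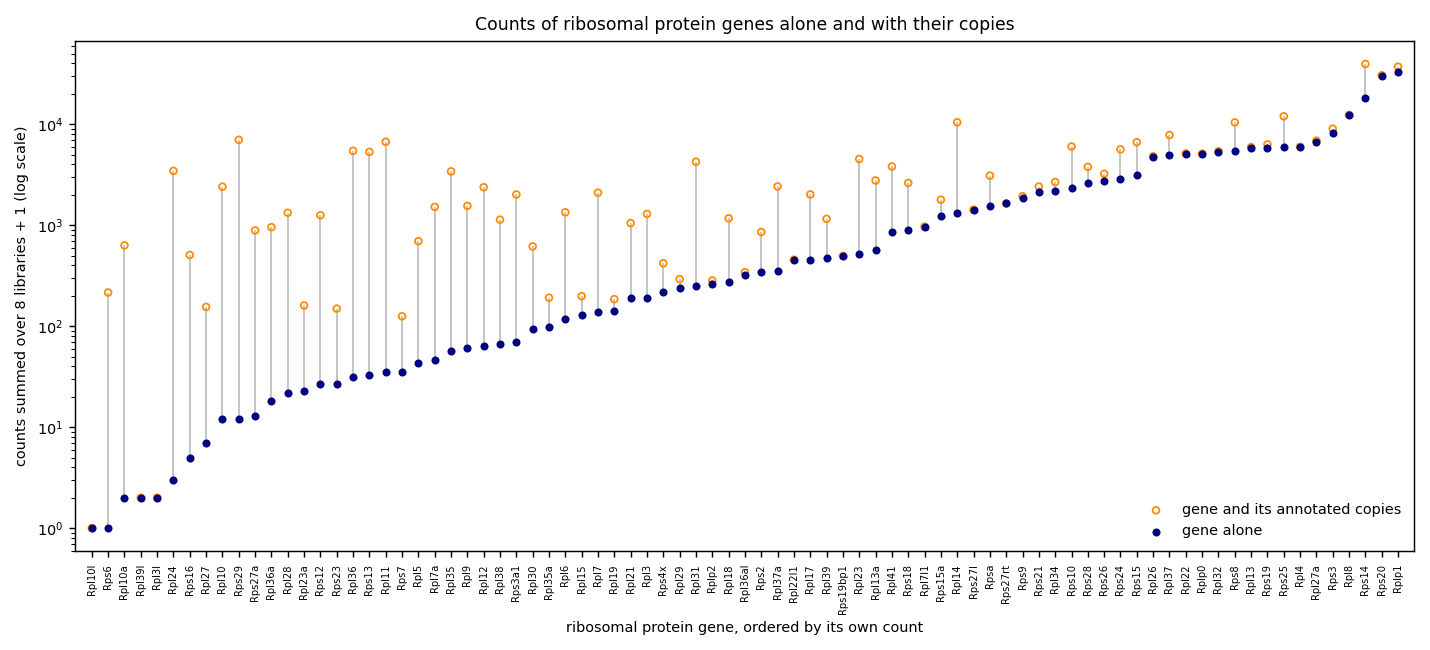
Counts of each ribosomal protein gene summed over 8 libraries, plus 1, on a log axis (filled points), and with the counts of its annotated copies added (open circles), for 81 of the 85 families, ordered by the gene's own count. The families run from Rpl10l at 0 counts to Rplp1 at 33159, and the gap between the symbols is widest for genes of low count such as Rps29 and Rpl24.

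Start sites were read from RefSeq promoter windows (GRCm38.p6), which held 66 of the 86 genes. A C followed by at least 6 pyrimidines, on the gene's strand and between 10 bases before and 20 bases from the annotated start on, was present in 30 of the 66 (45.5%) and in 15.6% of the 27025 genes of the table. With the tract required to begin at the start itself, as a C and at least 4 pyrimidines, the shares were 21.2% and 3.01%. The following 30-base windows are shown because they carry the tract from which this class of messenger RNA is named. They belong to genes treated below and to Rps6, whose tract is present although no read was counted on the gene. Capitals mark the tract, and the annotated start is the 11th base.
Rpl13a: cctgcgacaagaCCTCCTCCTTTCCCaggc
Rps21: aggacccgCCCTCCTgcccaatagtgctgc
Rps18: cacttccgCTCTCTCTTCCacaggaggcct
Rpl35a: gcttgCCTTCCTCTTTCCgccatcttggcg
Rps6: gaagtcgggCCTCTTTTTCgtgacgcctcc
The windows lie at chr7:45128726-45128755 (minus strand, Rpl13a), chr2:180257369-180257398 (plus, Rps21), chr17:33955646-33955675 (minus, Rps18), chr16:33056472-33056501 (plus, Rpl35a) and chr4:86857348-86857377 (minus, Rps6).

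Other motifs were searched over the whole window of 250 bases before to 50 after the start, on both strands. CGGAAG, the core bound by ETS factors, was present in 66.7% of the 66 genes, 36.8% of the tested genes in the table and 18.8% of all genes in it. TTGCATCA, a composite of C/EBP and ATF sites of the kind CHOP and ATF4 are known to bind, was found in 0 of the 66. It was in 0.771% of the tested genes and 1.03% of all genes. TGCAAT was found in 6.06% of the 66, 6.92% of the tested genes and 9.67% of all genes. For CACGTG, the E-box bound by MYC, the shares were 9.09%, 12.3% and 8.09%. No motif was a test of binding.

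Ribosomal protein messenger RNAs stood slightly lower in PiZ/Chop-/- livers in most tested genes, but no single gene passed the genome-wide test. The filter on low counts left 58 of the 86 genes to be tested and took out 28. No member was called by edgeR at an adjusted p below 0.05, against 1.03% of all 8669 tested genes (0.692% lower and 0.335% higher), and the smallest adjusted p among the members was 0.180. At an unadjusted p below 0.05 stood 9 members (15.5%), all lower, against 13.1% of all tested genes (6.85% counting only lower ones). The fold change was below 0 in 54 of the 58, against 50.2% of all tested genes. Its median was -0.35 over the members and -0.0016 over all tested genes. The members vary together within a library, so 54 of 58 is not 58 separate observations.

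Both subunits showed the same tendency. For the 40S subunit 22 of 23 tested genes were below 0, with a median of -0.32. For the 60S subunit it was 31 of 34, with a median of -0.36. Of the 28 genes that were not tested 26 had copies, as had 81 of all 86 members, so copies do not mark the untested genes. They included Rps6, Rps7, Rps12, Rps13, Rps16, Rps23, Rps27, Rps27a and Rps29 in the 40S subunit and 18 genes of the 60S subunit, among them Rpl5, Rpl10, Rpl11 and Rpl24. The few counts on untested genes went both ways, so the tendency holds for tested genes only. Rpl9 had a mean of 2.05 CPM in PiZ against 5.04 CPM without Chop, and Rps13 0.766 against 2.93 CPM. Both were higher without overlap. Rps23 was lower with overlap, at 2.25 against 0.706 CPM.

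**Figure D2:**
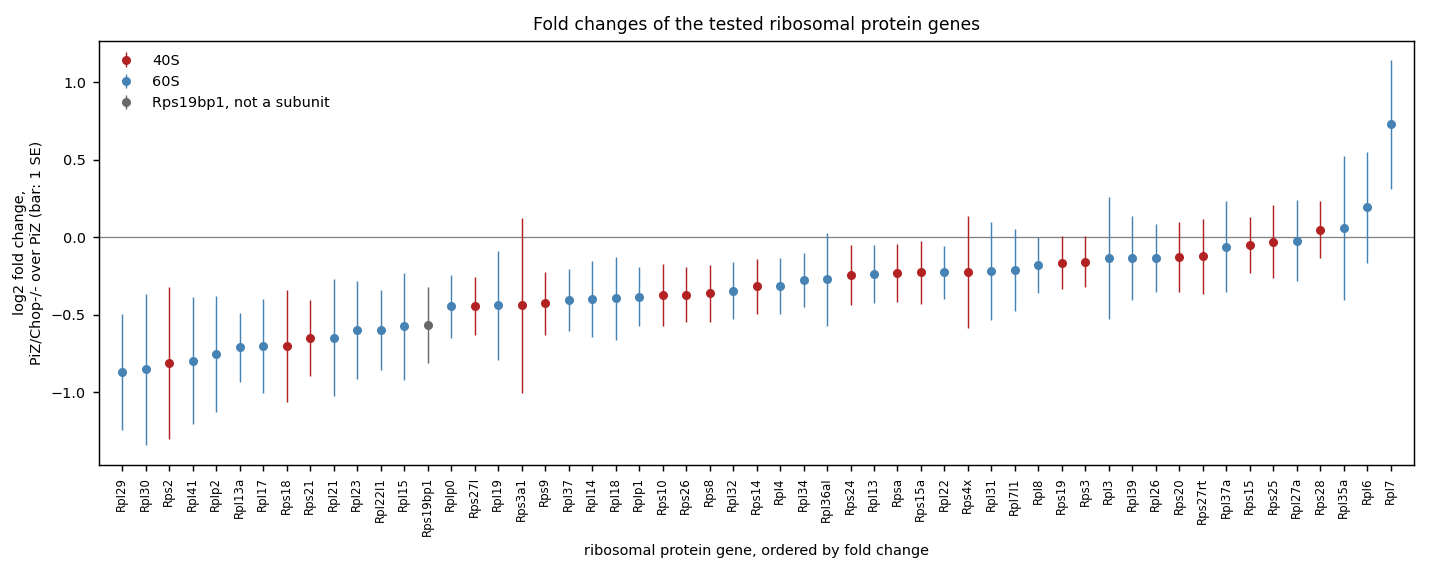
Log2 fold change (PiZ/Chop-/- over PiZ, vertical axis) with 1 SE for 55 of the 58 tested genes, ordered by value and coloured by subunit. Points run from -0.87 (Rpl29, at -0.30 without PiZ library 4) to 0.73 (Rpl7), 51 lie below 0, and 40S and 60S genes are interspersed.

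Adding the copies brought 82 of the 85 families into the test. The median stayed alike, and the share at an unadjusted p below 0.05 was larger than for the genes alone. None was called (1.03% of 8600 tested genes and families, 0.698% lower and 0.337% higher). At an unadjusted p below 0.05 stood 23 families (28.0%), all lower, against 13.2% of all (6.95% counting only lower ones). The fold change was below 0 in 78 of the 82, with a median of -0.35, against 50.3% of all. The 40S families had a median of -0.37 (31 of 32 below 0) and the 60S families one of -0.33 (46 of 49). Across the 58 genes tested both ways, the fold change of the gene and of its family had a Spearman's rho of 0.76, a description over values that share counts.

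**Figure D3:**
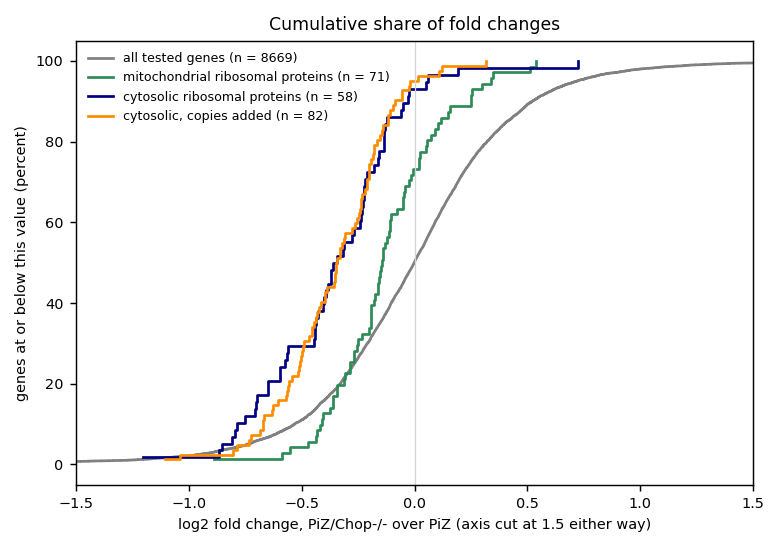
Cumulative percent of genes (vertical axis) at or below a log2 fold change (horizontal axis) for 58 cytosolic ribosomal protein genes, 82 families with copies added, 71 mitochondrial ribosomal protein genes and all 8669 tested genes. Both cytosolic curves lie left of the curve of all genes over most of the axis, with medians of -0.35 each against -0.0016.

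The share of all counts that fell on the 86 genes was 1.18, 1.38, 1.34 and 1.55% for PiZ libraries 1 to 4, and for PiZ/Chop-/- libraries 1 to 4 it was 1.04, 1.04, 1.03 and 1.16%. The groups did not overlap. The means were 1.36 ± 0.153% and 1.07 ± 0.0631% (SD, n = 4 each), a difference of -0.296 percentage points, or -0.233 without PiZ library 4. With the copies the shares were 2.03, 2.33, 2.23 and 2.65% against 1.71, 1.76, 1.71 and 1.99%, which did not overlap either. The share of the 40S genes alone did overlap, with a PiZ minimum of 0.619% and a PiZ/Chop-/- maximum of 0.628%. The 4 highest genes held 44.8% of the counts on the members, so the share weighs a few genes most. Being a score over genes chosen with earlier results known, the share is described without a test. In bulk liver, fewer cells of a type and less RNA per cell cannot be told apart.

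How far the genes lay below 0 depended on PiZ library 4. It was the highest of the 4 PiZ libraries in 34 of the 58 tested members and the lowest in 12, against 2839 highest and 2887 lowest of the 8669 tested genes. It was more than 2-fold above the mean of the other PiZ libraries in 11 members (19.0%, against 5.71% of all tested genes), and below the same mean by more than 1.5-fold in 8 (13.8%, against 21.2%). Without it the median over members was -0.22, with 51 of 58 below 0 and 4 at an unadjusted p below 0.05, a share under the 12.9% of all genes in that fit. The families without it had a median of -0.24, with 77 of 82 below 0 and 6 at an unadjusted p below 0.05, against 13.0% of all. Leaving out PiZ/Chop-/- library 1 likewise took the unadjusted count to 2 of 59 members (10.3% of all genes) and 8 families, and leaving out PiZ/Chop-/- library 3 took it to 5 of 59 members (10.8% of all genes) and 11 families. In the 8 fits that each leave out a library, 10.3% to 14.6% of all genes stood at an unadjusted p below 0.05. The direction held in more than 8 of 10 genes whichever library was left out, and the count at an unadjusted p did not hold.

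**Figure D4:**
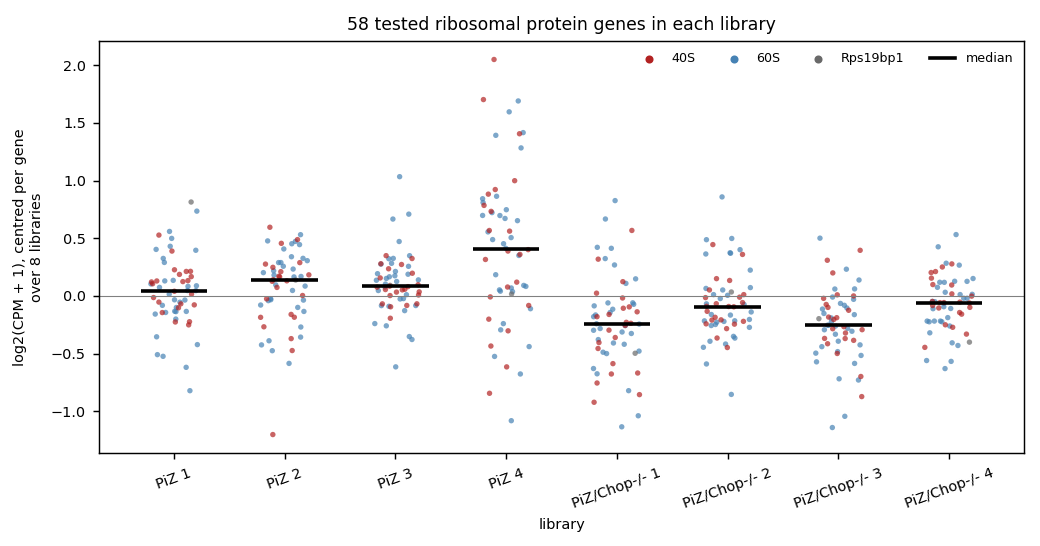
Level of each of the 58 tested genes in each of the 8 libraries, as log2(CPM + 1) minus the gene's mean over libraries; points are genes, black bars are medians. The PiZ medians lie above 0 and the PiZ/Chop-/- medians below 0, with PiZ library 4 highest and most widely spread.

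PiZ and PiZ/Chop-/- values were fully separate in 7 of the 58 members, each lower in PiZ/Chop-/-, against 4.22% of all tested genes that were lower in this way. None was higher without overlap (3.66% of all). Among families it was 12 of 82 lower (4.23% of all) and none higher (3.62% of all). With PiZ library 4 set aside it was 9 of 58 members (15.5%, against 6.69% of all) and 14 of 82 families (17.1%, against 6.70% of all).

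In the 40S subunit Rps21, a small protein needed for the maturation of the 18S rRNA, had 138, 119, 119 and 238 CPM in PiZ libraries, and 74.3, 92.0, 97.3 and 127 CPM in PiZ/Chop-/- libraries. PiZ library 4 was far above the other PiZ libraries, and PiZ/Chop-/- library 4 overlapped with the PiZ group. The fold change was -0.65 (SE 0.24, adjusted p = 0.269), and -0.34 without PiZ library 4. Rps14, a platform protein of the 40S subunit, stood at 1164, 1179, 1112 and 1332 CPM against 1002, 903, 1054 and 886 CPM. The groups did not overlap, and the fold change was -0.32 (SE 0.18, adjusted p = 0.466). Its family, with Gm5805, gave -0.33 and did not overlap either.

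Other abundant 40S genes differed less. Rps20 had a fold change of -0.13 (adjusted p = 0.858), with 1803 ± 498 CPM in the PiZ group against 1648 ± 269 CPM without Chop (SD, n = 4 each). Rps3, which also serves in DNA repair, was at -0.16, Rps19, mutated in Diamond-Blackfan anaemia, was at -0.16, and Rpsa, also known as the laminin receptor precursor, was at -0.23 (-0.12 without PiZ library 4). Their adjusted p values lay between 0.631 and 0.736. The Rpsa family was at -0.52, and at -0.10 without PiZ library 4. Rps28 was the 40S gene above 0, at 0.05 (adjusted p = 0.940).

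In the 60S subunit Rpl13a had the lowest p of all members. RPL13A is also known for leaving the ribosome to silence inflammatory messenger RNAs. It stood at 32.6, 37.9, 38.6 and 53.6 CPM in PiZ libraries, and 26.5, 27.0, 25.3 and 20.96 CPM in PiZ/Chop-/- libraries. The groups did not overlap, at a fold change of -0.71 (SE 0.22, adjusted p = 0.180), and -0.53 without PiZ library 4. The Rpl13a family, in which the copies held 79.6% of the counts, gave -0.63 (SE 0.20, adjusted p = 0.184), and its groups did not overlap.

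Rplp0, Rplp1 and Rplp2 form the stalk of the large subunit. Rplp0, its base, had 255, 304, 340 and 447 CPM in PiZ libraries, and 231, 216, 296 and 244 CPM in PiZ/Chop-/- libraries, overlapping through PiZ library 1. This gave a fold change of -0.45 (SE 0.20, adjusted p = 0.359), and -0.26 without PiZ library 4. Rplp1 had 1841, 2143, 2085 and 2714 CPM against 1834, 1736, 1638 and 1531 CPM. Its lowest PiZ value was just above its highest PiZ/Chop-/- value, and the fold change was -0.38 (adjusted p = 0.403), and -0.25 without PiZ library 4. Rplp2, much lower, was at -0.75 (adjusted p = 0.401), and at -0.18 without PiZ library 4.

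Rpl7, an early-binding 60S protein, went against the rest. It had 4.92, 11.2, 4.50 and 4.27 CPM in PiZ libraries, and 13.9, 4.60, 10.9 and 11.2 CPM in PiZ/Chop-/- libraries. The groups overlapped, with 2 libraries of each in the range of the other. The fold change was 0.73 (SE 0.42, adjusted p = 0.482) for Rpl7 and 0.32 (SE 0.18, adjusted p = 0.487) for its family, in which copies held 93.4% of the counts. Rpl6 and Rpl35a were also above 0 alone (0.19 and 0.06), but below 0 as families (-0.20 and -0.31). Without PiZ library 4 Rpl35a was at 0.50 alone and at -0.13 as a family.

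Counted on the gene alone, several members of low or middle count were high only in PiZ library 4. Rpl41, among the shortest proteins known, had 40.6, 36.9, 42.1 and 137 CPM in PiZ libraries, and 31.6, 34.5, 42.7 and 39.1 CPM in PiZ/Chop-/- libraries. Its fold change went from -0.79 with all libraries to -0.09 without PiZ library 4. The Rpl41 family, in which the copy Gm10076 held most counts, did not show this: it had 185, 281, 269 and 250 CPM in PiZ libraries, and 191, 199, 152 and 234 CPM in PiZ/Chop-/- libraries, at -0.34 with and -0.32 without that library. Rps2 went from -0.81 to -0.01 alone and from -0.56 to -0.16 as a family. Rps18 went from -0.70 to -0.13 alone and from -0.56 to -0.34 as a family. Rps25, which takes part in initiation at viral entry sites, was the reverse: it had 392, 409, 404 and 186 CPM in PiZ libraries, with PiZ library 4 lowest, and 418, 332, 290 and 324 CPM in PiZ/Chop-/- libraries. Its family was lowest there as well, at 512 CPM against 772 to 835 CPM in the other PiZ libraries. This set was picked with its values in view. The fold of PiZ library 4 over the other PiZ libraries bore little relation to GC content (Spearman's rho 0.07 across 58 genes, a description). GC content was taken over the coding sequence and the first 100 bases after it. Rpl41 and Rps26 lie 1251 and 1328 kb from Ddit3 on chromosome 10, the nearest of all members.

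**Figure D5:**
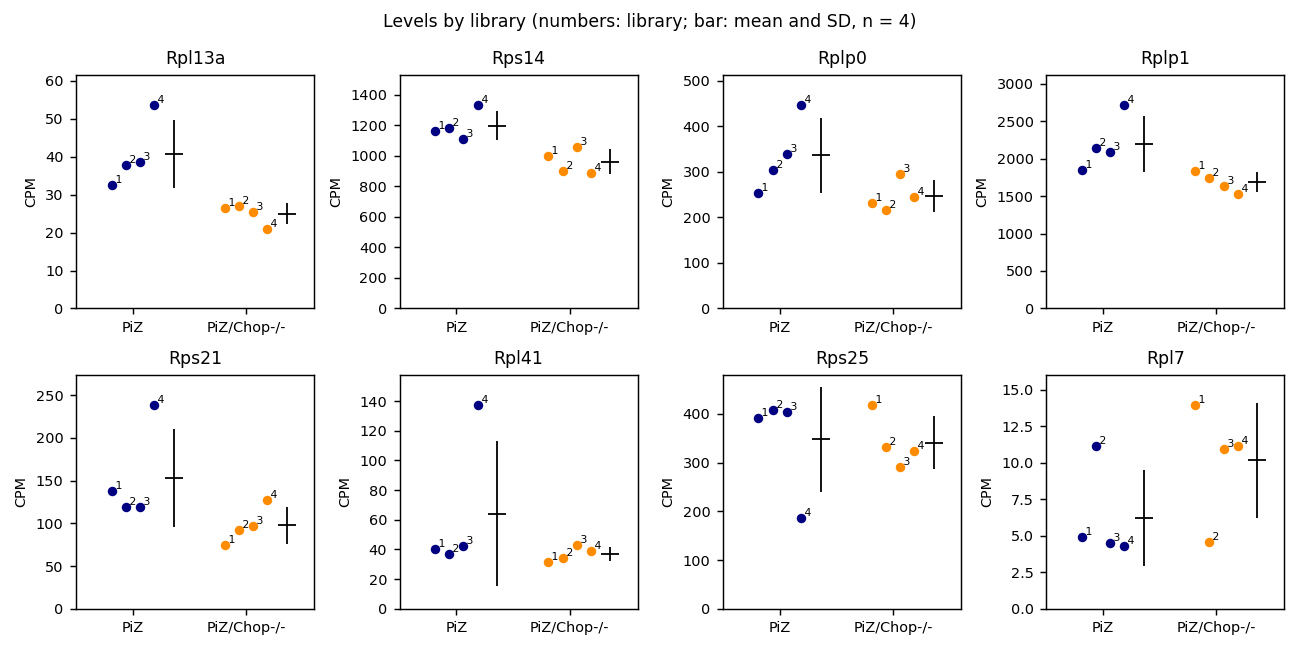
CPM (vertical axis, from 0) of 8 genes in 4 PiZ and 4 PiZ/Chop-/- libraries; small numbers name the library and bars give mean and SD (n = 4). Rpl13a, Rps14 and Rplp1 do not overlap between groups, Rps21 and Rpl41 are set apart by PiZ library 4, at 238 and 137 CPM, and Rps25 is lowest there.

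Some families could be tested only with their copies. The Rps13 family had 330, 334, 335 and 421 CPM in PiZ libraries against 213, 289, 297 and 277 CPM without Chop, and the groups did not overlap (-0.40, adjusted p = 0.360, and -0.29 without PiZ library 4). Copies held 99.4% of its counts. The few counts on Rps13 itself went the other way without overlap, with 0, 1.46, 1.61 and 0 CPM in PiZ libraries against 1.86, 1.72, 3.48 and 4.66 CPM. The Rps29 family was at -0.35 (adjusted p = 0.486), the Rpl11 family at -0.14 (adjusted p = 0.766) and the Rpl5 family at -0.39 (adjusted p = 0.507). Without PiZ library 4 these 3 were at -0.13, -0.10 and -0.13. The Rpl38 family, of a 60S protein known for its part in the translation of Hox messenger RNAs, was at -1.11 (adjusted p = 0.211), with 78.1, 49.1, 62.4 and 175 CPM in PiZ libraries, and 35.7, 35.0, 44.6 and 53.1 CPM in PiZ/Chop-/- libraries. Here PiZ library 4 was again far above the rest and 1 other PiZ library overlapped. Without it the family was at -0.56 (adjusted p = 0.270).

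Some members are paralogs of another member, and some of these can replace it in the ribosome. Rpl22l1 had 22.8, 34.5, 27.7 and 41.3 CPM in PiZ libraries, and 15.3, 21.3, 18.9 and 27.9 CPM in PiZ/Chop-/- libraries. Its fold change was -0.60 (SE 0.26, adjusted p = 0.341), and -0.43 without PiZ library 4. Its partner Rpl22, which is more abundant, was at -0.23 (adjusted p = 0.606). The log2 ratio of Rpl22l1 to Rpl22 was -3.36 ± 0.36 in PiZ and -3.73 ± 0.33 in PiZ/Chop-/- (SD, n = 4 each), a difference of -0.37 (exact two-sided permutation p = 0.2 over 70 assignments). Rps27l, a target of p53, had 89.8, 89.9, 83.9 and 122 CPM in PiZ libraries, and 63.7, 78.7, 62.6 and 78.7 CPM in PiZ/Chop-/- libraries. These did not overlap (-0.44, SE 0.19, adjusted p = 0.337, and -0.29 without PiZ library 4), and its partner Rps27 had too few counts for the ratio. Rpl36al (-0.27), Rpl7l1 (-0.21) and Rps27rt (-0.12) differed less, and Rpl3l, Rpl10l and Rpl39l, paralogs known from muscle and testis, had at most 1 count each in all.

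Fold changes were also split by the wider definition of the pyrimidine tract, near the annotated start rather than exactly at it. Members with such a tract had a median fold change of -0.39 (20 of 21 below 0), and those without it one of -0.23 (20 of 22). Only 9 of the 43 tested members in the promoter table had a tract beginning at the start itself. Over all tested genes of the promoter table the medians were 0.0118 with the tract and -0.0017 without it. As families the members were at -0.43 (27 of 28 below 0) and -0.24 (33 of 34). Without PiZ library 4 the members were at -0.25 and -0.16, and the families at -0.27 and -0.20. The difference between the members with and without a tract was not tested.

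The genes around the ribosome were listed with earlier results known and gave no call in the edgeR fit either. With DESeq2 the helicase Ddx56 (adjusted p = 0.0443), the small nucleolar RNA host Snhg18 (adjusted p = 0.0402) and the transcription factor Zbtb7a (adjusted p = 0.0237) passed the threshold. Snhg18 also did in edgeR with no filter (adjusted p = 0.0376). The shares of all genes called in those fits are not given here, so these calls are not read as results about the lists. Mitochondrial ribosomal proteins, which form a separate ribosome, had a median of -0.15, with 52 of 71 below 0, between the medians of the cytosolic genes and of all genes. That difference was not tested. Of 42 tested factors that assemble the 60S subunit 34 were below 0 (median -0.28). Among them Ddx56 was at -0.77 (adjusted p = 0.0860), and at -0.71 without PiZ library 4. Of 37 factors of the 40S subunit 25 were below 0 (median -0.22). Pno1, a partner in 18S rRNA maturation, was at -0.92 (adjusted p = 0.185), and at -0.68 without PiZ library 4. Nucleolar factors of rRNA modification had 8 of 13 below 0 (median -0.14), and RNA polymerase I and its factors 5 of 13 (median 0.08). Without PiZ library 4 the medians were -0.07 for the mitochondrial proteins, -0.31 and -0.23 for the 60S and 40S factors, -0.18 for the nucleolar factors and 0.14 for RNA polymerase I.

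Lists of other kinds were mixed. Other messenger RNAs with a TOP tract had 10 of 16 below 0 (median -0.15), genes that control growth and TOP translation 14 of 23 (median -0.07), ribosome quality control 11 of 22 (median 0.02) and hosts of small nucleolar RNAs 3 of 10 (median 0.13). Without PiZ library 4 these medians were -0.06, -0.06, -0.02 and 0.20, beside 0.02 over all tested genes. Snhg18 was below 0 unlike most hosts, at -1.24 (adjusted p = 0.0626) without overlap, and at -1.16 without PiZ library 4. Markers of Kupffer cells and macrophages lay lower in PiZ/Chop-/- libraries as well, and none was called. All 12 were tested, 11 were below 0, and their sum was 1048 to 1511 CPM in the PiZ group against 821 to 977 CPM without Chop. Their median was -0.33, and -0.18 with 10 below 0 once PiZ library 4 was set aside. Lymphocyte markers, of which 1 of 11 had enough counts, summed to 15.5 to 23.7 against 7.43 to 14.4 CPM. Stellate cell markers were below 0 in 6 of 6 (median -0.50), endothelial markers in 1 of 7 (median 0.31) and red cell markers in 0 of 5 tested genes (median 0.38). Without PiZ library 4 these medians were -0.49, 0.63 and 0.89. In that fit 1 stellate marker was called, beside 109 of the 8669 genes of the main fit. The part of these cells in the ribosomal protein values was not tested.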

How the data were processed

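Per the file headers, the authors deposited 8 files of unnormalized counts for each gene, from QuantSeq 3' libraries read from one end with 75 bases, per the labels' protocols. The submitters' processing notes list STAR, HTSeq and mm10. Their roles and versions, the annotation, the strand setting and the handling of reads with several matches were not stated in the sources at hand. Of 52550 gene IDs 52403 were found in GENCODE M21, which may not be the authors' release. Total counts per library were 1650260 to 3064385, and floors of 3 counts cover counting error only.

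Genes were tested with edgeR 4.0.16 (R 4.3.3; filterByExpr with a minimum count of 10, TMM, robust glmQLFit, glmQLFTest, no covariate, two-sided) and adjusted by Benjamini-Hochberg over all 8669 genes, with a threshold of 0.05. CPM use TMM-scaled sizes, except for the floors, which use total counts. The test was checked on simulated counts. Copies were found with blastn 2.17.0, and their counts were added to each gene as an alternative chosen after seeing the data, as were the values without PiZ library 4 for groups without overlap, other lists and named families. Other alternatives were DESeq2 1.42.0, limma-voom (limma 3.58.1), other scalings and filters, a replicate block and each library left out. Groups and replicate numbers came from the sample titles, and no 2 files were identical. The members and all lists were chosen with earlier results of these data known. Named members were the 5 of lowest p and the 3 of highest level in each subunit, the 4 highest above 0, paralogs with their partners and a set of well-known genes; in other lists, the 2 of lowest p, of which fewer are given. Rps2, Rps18, Rps25, Rpl41 and the named families were chosen after their values were seen. A few members are not reported here by name or shown in the plots that name genes, but are counted in all totals.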

Additional observations from a re-analysis of the deposited data

Results flagged for a closer look

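In 74 groups of 4 libraries (the named 40S and 60S genes and the shares of counts), 1 library lay far outside the range of the other 3 in 12 cases, by Dixon's criterion at 95%. Chance sets apart about 1 in 20 such groups. Rpl41, Rps2, Rps18 and Rps25 were named with their values in view and give 4 of the cases; without the genes so chosen it was 8 of 66 groups. In PiZ the highest library stood alone for Rpl41 (137 CPM, others 36.9 to 42.1), Rps2 (58.4 CPM, others 12.1 to 16.4), Rps18 (127 CPM, others 36.4 to 51.1), Rplp2 (37.5 CPM, others 10.2 to 14.1), Rps21 (238 CPM, others 119 to 138) and Rps27l (122 CPM, others 83.9 to 89.9), each time PiZ library 4. Rps25 was lowest in the same library (186 CPM, others 392 to 409). Rpl7 was highest in PiZ library 2 (11.2 CPM, others 4.27 to 4.92). Rps3 was lowest in PiZ library 3 (461 CPM, others 525 to 530) and highest in PiZ/Chop-/- library 1 (478 CPM, others 451 to 453). The share of counts in PiZ/Chop-/- was highest in library 4, with 1.16% for all members (others 1.03 to 1.04%) and 0.628% for the 40S genes (others 0.527 to 0.541%).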

How the results depend on the processing

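The median over members stayed below 0 in all alternatives run. Leaving out each library in turn gave medians of -0.358 to -0.221 (40S -0.346 to -0.220, 60S -0.378 to -0.220), 50 to 54 members below 0, 0 calls, a share difference of -0.357 to -0.233 percentage points, a group difference in the log2 ratio of Rpl22l1 to Rpl22 of -0.513 to -0.222 and Ddit3 at -5.78 to -5.42. With no filter 1 member was called, whose direction is not given here, and 62 of 84 were below 0. DESeq2 called 0 members, with 14 at an unadjusted p below 0.05. With the copies added the share difference was -0.514 points. The count at an unadjusted p below 0.05 was 17 with library size only, 17 with no filter and 2 to 16 with a library left out (for families, 6 to 27). With a library left out, 10.3% to 14.6% of all genes stood below it. For the fits with no filter, library size only, DESeq2 and a replicate block, the shares over all genes are not given here. Their counts are therefore not read as results about the members. Genes near 0 changed sign. With library size only Rpl35a was at -0.0326 and Rps28 at -0.0147, with limma-voom Rps25 was at 0.029, and with copies added Rpl35a was at -0.31, Rpl6 at -0.20 and Rps28 at -0.0216. With a library left out, Rpl35a ran from -0.33 to 0.50, Rpl27a from -0.31 to 0.14, Rps25 from -0.22 to 0.0642, Rps28 from -0.0531 to 0.13, Rpl3 from -0.39 to 0.0812, Rpl39 from -0.34 to 0.0762, Rpl7l1 from -0.38 to 0.0451, Rps20 from -0.25 to 0.0182, Rps27rt from -0.29 to 0.092 and Rps4x from -0.53 to 0.15. The cause was not tested. Replicate numbers did not pair the libraries (correlations of -0.051 to 0.049 for the same number). A replicate block gave 0 calls, 53 members below 0, a median of -0.351, 8 at an unadjusted p below 0.05 and Rps25 at 0.0238, and library 1 alone correlated best with its own number. The 28 members that were not tested had too few counts on the gene itself. Copies were known for 26 of them and for 81 of all 86 members.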
